A study of Mus musculus with 9 samples.

Results

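Messenger RNA of 9 transcription factors of the ETS family, Fli1, Spi1, Ets2, Elf1, Elf4, Etv6, Etv3, Elk3 and Gabpa, was measured in macrophages that had been grown in culture from mouse bone marrow. The 9 genes were taken by name from the 22165 gene rows of the table, and all 9 were found and passed the filter on low counts. Fli1 was selected on its own measured read counts, for the difference between the knockout libraries with itaconate and those without, so its values are a description with no test. The other 8 were chosen as members of the family, with earlier results of these data known.

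The 9 libraries form 3 labelled groups of 3, all from mice of the C57BL/6N strain that were 6 to 16 weeks old and all stimulated for 24 h with 100 ng/mL lipopolysaccharide (LPS), a bacterial cell wall product that macrophages sense. The WT group is wild type with LPS. The KO group is Irg1-/- with LPS. Irg1, listed here as Acod1, codes for the enzyme that produces itaconate, a metabolite of activated macrophages. The itaconate group is Irg1-/- with LPS and 1 mM itaconate, which was given 4 h after the LPS. No group without LPS was analysed here, so nothing below measures the response to LPS itself. Whether replicates are separate cultures or mice is not in the labels, and p-values therefore rest on a spread between libraries that may be technical.

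ETS factors share a DNA-binding domain that recognises a GGAA core, and they act as activators or repressors according to the member, its partners and its phosphorylation. PU.1, the product of Spi1, is required for macrophage development and binds enhancers across macrophage genes. Fli1 is known from blood stem cells, megakaryocytes and endothelium, and several other members are targets of mitogen-activated protein kinases, which LPS activates.

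Libraries went against their labels and should be read with that in mind. Acod1 lay at 4170 CPM (a gene's reads scaled to the library's total gene reads, with the TMM correction for composition) in WT replicate 3, and at 11.3 and 9.14 CPM in WT replicates 1 and 2. It lay at 4421 CPM in KO replicate 3 and 6421 CPM in itaconate replicate 3, and between 0.877 and 12.9 CPM in the other 4 libraries labelled Irg1-/-. The deleted part of the gene is not given in the labels. Results are therefore also given without WT replicates 1 and 2, KO replicate 3 and itaconate replicate 3, which leaves 1 library labelled WT, whose spread is then taken from the other groups. Itaconate replicate 3 also stood apart across all genes, and its correlation with the other 8 libraries averaged 0.909, where theirs averaged 0.939 to 0.954. Its share of reads assigned to no annotated feature was 33.7%, against 23.1% to 28.4% elsewhere, and its mitochondrially encoded share of gene reads was 0.709%, against 1.27% to 2.57%. Gene reads per library ran from 7361671 to 20430359. The number in the description prefix of the libraries (MB_1 to MB_4), which the labels do not define, was 1 for WT replicates 1 to 3 and KO replicates 1 and 2, 2 for KO replicate 3 and itaconate replicate 1, 3 for itaconate replicate 2 and 4 for itaconate replicate 3. With the libraries against their Acod1 label left out, no remaining itaconate and KO libraries share a prefix number.

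Promoter sequence was available for 7 of the 9 members, in windows credited to RefSeq on GRCm38.p6, and 3 are shown as the 250 bases before the transcription start, 5′ to 3′ on the strand of the gene. Etv6 is shown because its level followed that of Fli1 most closely over the libraries, and Elf4 and Elk3 because theirs did not. These genes were chosen after their values were seen. Capitals mark the ETS core GGAA or its reverse complement TTCC.
Etv6 (chr6:134035450-134035699, plus strand): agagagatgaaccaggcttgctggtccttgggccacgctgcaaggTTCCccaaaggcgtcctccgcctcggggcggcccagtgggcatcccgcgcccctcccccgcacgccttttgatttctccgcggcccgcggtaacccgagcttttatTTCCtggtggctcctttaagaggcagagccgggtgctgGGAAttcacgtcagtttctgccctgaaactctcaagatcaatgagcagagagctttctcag
Elf4 (chrX:48463133-48463382, minus strand): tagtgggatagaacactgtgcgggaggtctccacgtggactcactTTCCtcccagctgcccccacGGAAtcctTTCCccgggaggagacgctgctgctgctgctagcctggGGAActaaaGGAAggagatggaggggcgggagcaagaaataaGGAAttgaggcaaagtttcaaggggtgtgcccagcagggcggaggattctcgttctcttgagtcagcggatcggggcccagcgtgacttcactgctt
Elk3 (chr10:93311160-93311409, minus strand): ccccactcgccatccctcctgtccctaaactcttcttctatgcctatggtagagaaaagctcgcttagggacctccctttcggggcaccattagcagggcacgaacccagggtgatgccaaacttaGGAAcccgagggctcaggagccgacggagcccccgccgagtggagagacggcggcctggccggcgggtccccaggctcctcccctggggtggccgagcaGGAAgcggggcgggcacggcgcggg
The Etv6 window held 3 cores on both strands together, the Elf4 window 6 and the Elk3 window 2. A second Elf4 window, at another start, held 2, and the 2 windows of Elf1 held 2 and 0. The second windows of Elf4 and Elf1 lie inside the gene as GENCODE annotates it. The windows of Etv3, Ets2 and Gabpa also overlap their annotated genes and held 6, 1 and 5. The core is short and was present in 93.5% of all 32851 promoter windows of this length, with a median of 3 per window. The longer motif CCGGAAGT, searched on both strands and containing the core, was in 2.88% of all windows and in none of the 7 members' windows. GAGGAAGT, also searched on both strands and also containing the core, was in 2.44% of all windows and, of the members, in that of Gabpa. These counts describe letters, not binding.

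Fli1 (ENSMUSG00000016087.13) lies on the minus strand of chromosome 9, from 32422204 to 32542861 in GRCm38. Its level was 212, 217 and 223 CPM in WT replicates 1 to 3. It was 163, 164 and 247 CPM in KO replicates 1 to 3, and 348, 734 and 712 CPM in itaconate replicates 1 to 3. Every itaconate library was thus above every other library, and the lowest of them, replicate 1, was 1.41-fold above the highest KO library, replicate 3. Group means were 191 ± 47.9 CPM in KO, 218 ± 5.51 CPM in WT and 598 ± 217 CPM in the itaconate group (SD, n = 3). The KO and WT means differed by less than the SD of the KO libraries.

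The difference that led to the choice of Fli1 was a fitted log2 fold change of 1.64 ± 0.32 (SE) for itaconate against KO, a 3.13-fold higher level, and 64 of the 10781 tested genes had a larger one. The fit for itaconate against WT, which uses the same itaconate libraries, gave 1.46 ± 0.32, and that for KO against WT -0.19 ± 0.31. Without the 4 libraries that go against their Acod1 labels the values were 1.69 ± 0.38, 1.26 ± 0.48 and -0.43 ± 0.44. Without itaconate replicate 3 alone the itaconate against KO value was 1.49 ± 0.32.

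**Figure D1:**
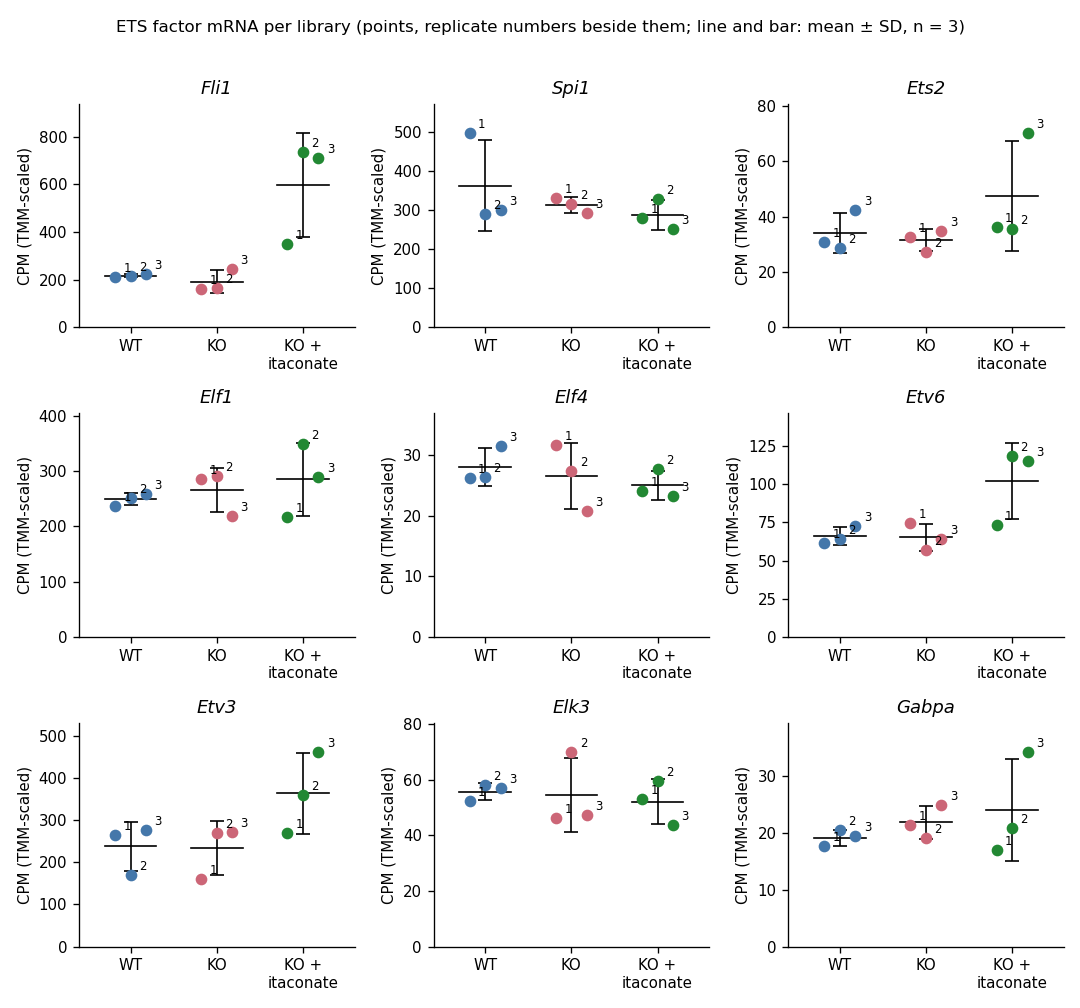
Level of each of the 9 ETS factors in CPM (vertical axis, from 0) in the 3 libraries of each labelled group (horizontal axis), with replicate numbers beside the points and the mean ± SD as a line and bar. Fli1 in the itaconate libraries lay between 348 and 734 CPM, above the 163 to 247 CPM of the other 6, whereas the Spi1 groups overlapped.

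The Fli1 level also followed the description prefix. Of the libraries with prefix number 1, KO replicates 1 and 2 lay at 163 and 164 CPM and the WT libraries at 212 to 223 CPM. The 2 libraries with number 2 held 247 CPM (KO replicate 3) and 348 CPM (itaconate replicate 1), and the single libraries with numbers 3 and 4, both labelled itaconate, held 734 and 712 CPM. The only itaconate and KO libraries that share a number thus differed 1.41-fold, and with the prefix as a term in the fit the itaconate against KO value was 0.50 ± 0.37, which rests on that pair. Prefix and treatment cannot be told apart for the higher levels. Nor can they in the fit without the 4 libraries, where no itaconate and KO libraries share a number.

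**Figure D2:**
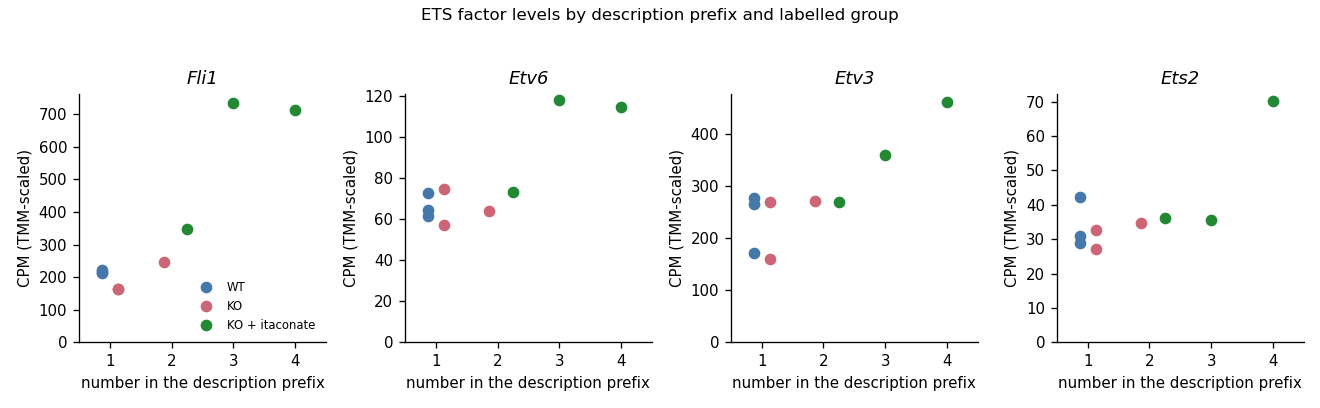
Level in CPM (vertical axes, from 0) of Fli1, Etv6, Etv3 and Ets2 against the number in the description prefix (horizontal axes), 1 point per library, coloured by labelled group. For Fli1, libraries with number 1 lay at or below 223 CPM, and the itaconate libraries with numbers 3 and 4 at 734 and 712 CPM. The Ets2 level stood out in the library with number 4, at 70.1 CPM.

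Fli1 took 14.2%, 13.2% and 20.2% of the reads of the 9 members in KO replicates 1 to 3, and 15.2%, 19.3% and 17.4% in WT replicates 1 to 3. In itaconate replicates 1 to 3 it took 26.4%, 36.1% and 35.6%. These shares do not depend on library scaling. For each read of Spi1 there were 0.493, 0.521 and 0.846 Fli1 reads in KO, 0.427, 0.748 and 0.744 in WT and 1.24, 2.24 and 2.83 in itaconate replicates 1 to 3. Only the itaconate libraries held more reads of Fli1 than of Spi1. Reads near 3′ ends were counted in these libraries, and the ratio compares libraries, not the amounts of the 2 factors.

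Spi1 (chromosome 2, 91082390 to 91115756, plus strand) encodes PU.1. It lay at 497, 290 and 300 CPM in WT, 331, 315 and 292 CPM in KO and 281, 327 and 251 CPM in itaconate replicates 1 to 3. WT replicate 1 was high and the groups overlapped. Its log2 fold change was -0.13 ± 0.28 for itaconate against KO (95% interval -0.72 to 0.47, edgeR adjusted p = 0.93) and -0.21 ± 0.28 for KO against WT (-0.81 to 0.38, edgeR adjusted p = 0.995). The latter was 0.083 without WT replicate 1. A change of PU.1 messenger RNA was thus not detected, and the intervals include differences of up to -0.72 and -0.81.

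Among the activators, Ets2 (chromosome 16, 95702075 to 95721051, plus strand), a factor that ERK phosphorylation activates in macrophages, lay at 31.0, 28.8 and 42.4 CPM in WT and 32.5, 27.1 and 34.8 CPM in KO replicates 1 to 3. It lay at 36.2, 35.5 and 70.1 CPM in itaconate replicates 1 to 3. Its itaconate and KO groups did not overlap, but only itaconate replicate 3 was far from the rest. The log2 fold change of 0.59 ± 0.32 for itaconate against KO (edgeR adjusted p = 0.636) was 0.18 ± 0.27 without that library (edgeR adjusted p = 0.843) and 0.24 ± 0.34 without the 4 libraries (edgeR adjusted p = 0.807). Against WT it was 0.47 ± 0.32 (edgeR adjusted p = 0.666), and -0.25 without the 4.

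Elf1 (chromosome 14, 79481194 to 79582494, plus strand), an activator of lymphoid and myeloid genes, lay between 216 and 350 CPM in the 9 libraries. Both ends of that range were itaconate libraries, replicates 1 and 2. Its log2 fold change was 0.10 ± 0.27 for itaconate against KO (edgeR adjusted p = 0.946), and -0.06 without the 4 libraries. Elf4 (chromosome X, 48411046 to 48463132, minus strand), which is known to promote type I interferon production, ranged from 20.8 CPM in KO replicate 3 to 31.6 CPM in KO replicate 1. Its log2 fold change for itaconate against KO was -0.09 ± 0.27 (95% interval -0.66 to 0.48). Gabpa (chromosome 16, 84834925 to 84863779, plus strand), the DNA-binding subunit of the GABP complex that activates genes of mitochondrial respiration, was the member with the fewest reads, from 145 to 439 per library. It lay at 17.1, 20.8 and 34.3 CPM in itaconate and 21.5, 19.1 and 25.0 CPM in KO replicates 1 to 3. Its itaconate against KO value of 0.14 ± 0.30 was -0.22 without itaconate replicate 3. Gabpa, Elf1 and Elk3 overlap the genes Atp5j, Wbp4 and Cdk17 on the opposite strand, and since the strand setting of the counting is not given in the sources used here, their counts are less certain.

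Among the repressors, Etv6 and Etv3 had fitted itaconate against KO values near that of Ets2, and Elk3 had a negative one. Etv6 (chromosome 6, 134035700 to 134270158, plus strand), a repressor needed in blood stem cells, lay at 61.6, 64.3 and 72.6 CPM in WT and 74.6, 57.1 and 64.0 CPM in KO replicates 1 to 3. It lay at 73.1, 118 and 115 CPM in itaconate replicates 1 to 3, so that replicates 2 and 3 were high and replicate 1 fell within the KO range. Its log2 fold change of 0.65 ± 0.28 for itaconate against KO, a 1.56-fold higher fitted level, had an unadjusted p of 0.0343 and an edgeR adjusted p of 0.574, and did not pass. It was 0.54 ± 0.28 without itaconate replicate 3 and 0.51 ± 0.36 without the 4 libraries (edgeR adjusted p = 0.526 and 0.556). With the prefix as a term it was 0.19 ± 0.41, and the 2 libraries that share prefix number 2 held 64.0 CPM (KO replicate 3) and 73.1 CPM (itaconate replicate 1).

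Etv3 (chromosome 3, 87525407 to 87540156, plus strand) encodes a repressor linked to cell cycle arrest as macrophages mature. It lay at 266, 171 and 277 CPM in WT, 160, 269 and 273 CPM in KO and 270, 361 and 462 CPM in itaconate replicates 1 to 3. Itaconate replicates 2 and 3 were the highest of the 9 libraries, and replicate 1 fell within the KO range. The log2 fold change for itaconate against KO was 0.64 ± 0.31 (edgeR adjusted p = 0.605), 0.42 ± 0.31 without itaconate replicate 3 and 0.53 ± 0.36 without the 4 libraries (edgeR adjusted p = 0.655 and 0.543). With the prefix as a term it was -0.01 ± 0.48. Elk3 (chromosome 10, 93247414 to 93311135, minus strand), a ternary complex factor that represses until it is phosphorylated, lay between 43.6 CPM in itaconate replicate 3 and 69.9 CPM in KO replicate 2. Its itaconate against KO value was -0.07 ± 0.27 (95% interval -0.65 to 0.52).

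**Figure D3:**
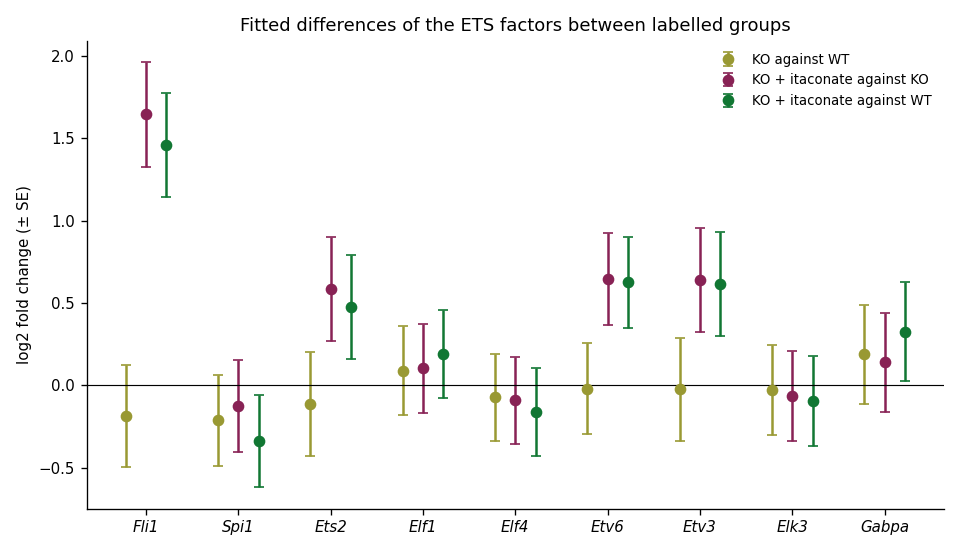
Fitted log2 fold change ± SE (vertical axis) of each ETS factor (horizontal axis) in the 3 comparisons of labelled groups. Apart from Fli1, which was picked for this difference, the higher values for itaconate against KO were those of Etv6 (0.65), Etv3 (0.64) and Ets2 (0.59), and none passed the test. The KO against WT values lay between -0.21 and 0.19.

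Over the family, the comparison of KO with WT was one of labelled genotypes under LPS. Acod1 went against the label in WT replicates 1 and 2 and in KO replicate 3. The comparison therefore cannot be read as loss of Irg1. None of the 8 members tested passed the edgeR threshold, an adjusted p under 0.05, and none had an unadjusted p under 0.05. Of all 10781 genes 0% passed and 3.13% had an unadjusted p under 0.05, 2.45% higher and 0.677% lower in KO. DESeq2 and limma-voom also called none of the 8. Values were above 0 for 2 and below 0 for 6 of the 8, against 48.9% and 51.1% of all genes, and no member had KO and WT groups that did not overlap. Of all genes 4.85% lay higher and 5.76% lower in every KO library than in every WT library. With Fli1 left out the median of the members was -0.03, beside -0.01 for all genes. Without the 4 libraries that go against their Acod1 labels it was -0.01, beside 0.04 for all genes.

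The comparison of the itaconate group with KO asked what added itaconate does in cells labelled as lacking the enzyme. By edgeR 0 of the 8 passed, and 1, Etv6, had an unadjusted p under 0.05. Of all genes 0% passed and 8.3% had an unadjusted p under 0.05, 4.19% higher and 4.11% lower in the itaconate group. Limma-voom called none, and DESeq2 called none of the 3 (Spi1, Elf1 and Etv3) to which it gave an adjusted p. Ets2 was the 1 of the 8 that was higher in every itaconate library than in every KO library, where 5.61% of all genes were, and no member was lower in every one, where 5.29% were. Values were above 0 for 5 and below 0 for 3 of the 8, against 48.4% and 51.6% of all genes. With Fli1 left out the median of the members was 0.12, beside -0.02 for all genes, and it was -0.07 without the 4 libraries.

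The comparison of the itaconate group with WT shares libraries with both others. Again 0 of the 8 passed by edgeR, DESeq2 or limma-voom, and Etv6 (0.62 ± 0.28, edgeR adjusted p = 0.549) was the 1 with an unadjusted p under 0.05. Of all genes 0% passed and 8.89% had an unadjusted p under 0.05, 5.32% higher and 3.56% lower in the itaconate group. Etv6 was also the 1 of the 8 that was higher in every itaconate than in every WT library, as were 7.3% of all genes, and no member was lower in every one, as were 7.25%. Values were above 0 for 5 and below 0 for 3 of the 8, against 49.1% and 50.9% of all genes. Etv3 was at 0.62 ± 0.31 and Spi1 at -0.34 ± 0.28 (edgeR adjusted p = 0.58 and 0.72).

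Across the 9 libraries the log2 level of Fli1 had a Pearson correlation of 0.91 with Etv6, 0.79 with Etv3 and 0.68 with Ets2. It was 0.51 with Gabpa and 0.40 with Elf1, and negative with Elk3 (-0.25), Elf4 (-0.34) and Spi1 (-0.36). Without itaconate replicate 3 the values for Etv6, Etv3 and Ets2 were 0.86, 0.66 and 0.41, and that for Gabpa was -0.00357. These points share groups and prefixes, and the correlations are descriptions.

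Of 7290 genes with a mean of at least 10 CPM, the 5 whose profile was most like that of Fli1 over the 9 libraries were Qk, Purb, Armc8, Nfia and Cd44. Qk, an RNA-binding regulator of splicing, had r = 0.98. Purb, a single-stranded nucleic acid-binding protein, Armc8, a subunit of a ubiquitin ligase complex, and Nfia, a transcription factor of the nuclear factor I family, had r = 0.97, 0.97 and 0.96. Cd44, the hyaluronan receptor, had r = 0.96 and lay at 516 to 824 CPM in KO, 584 to 686 CPM in WT and 896 to 1353 CPM in the itaconate libraries. Qk averaged 391 ± 46.9 CPM in KO and 615 ± 146 CPM in the itaconate group (SD, n = 3). As for Fli1, KO replicate 3 was the highest KO library for all 5 genes. Without itaconate replicate 3, 3 of these 5 (Armc8, Qk and Cd44) remained among the 5 most alike, and the other 2 ranked 6 and 7.

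**Figure D4:**
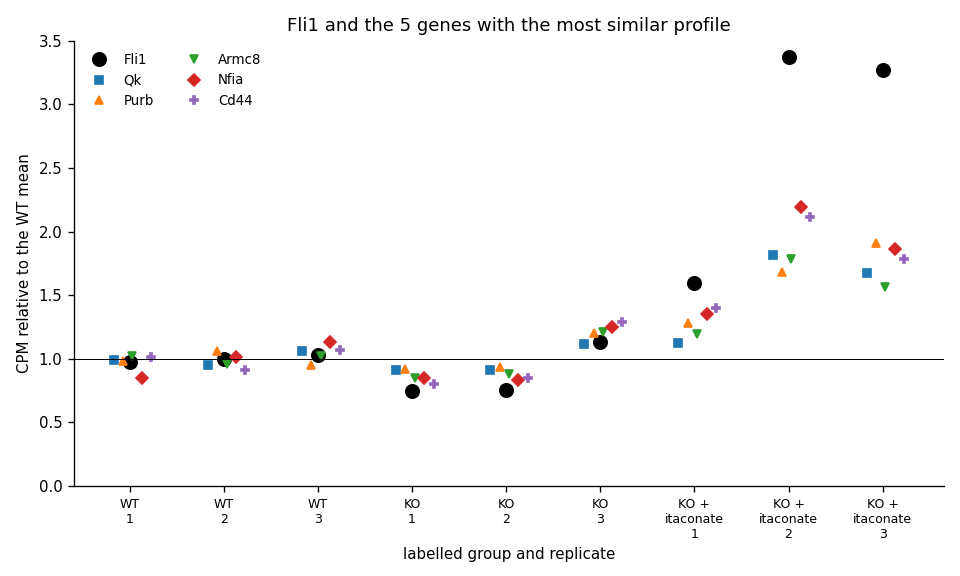
Level in each library relative to the mean of the 3 WT libraries (vertical axis, from 0) for Fli1 and the 5 genes most like it, by labelled group and replicate (horizontal axis). KO replicates 1 and 2 lay below the WT mean for all 6 genes, and itaconate replicates 2 and 3 lay highest for all 6.

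The next most alike genes of the other members, 2 for each, differed from member to member. Those of Etv6 were Fam76a (r = 0.99) and Setd3 (r = 0.98), and 1 of those of Spi1 was Ptpn6, the phosphatase SHP-1 (r = 0.94). Those of Etv3 were Sdf2 (r = 0.97) and Chchd6 (r = 0.96), and those of Ets2 Ccdc9 (r = 0.95) and Pea15a (r = 0.94). For Elf1 they were Fbxl20 (r = 0.97) and Hps4 (r = 0.93), for Elf4 Tomm70a (r = 0.95) and Ubr4 (r = 0.90), for Elk3 Gng12 (r = 0.94) and Rnf2 (r = 0.93), and for Gabpa Leprotl1 and Actl6a (r = 0.97 for each). Without itaconate replicate 3 both remained the closest for Etv6 and Elk3, 1 of the 2 did for Elf1, Elf4 and Etv3, and neither did for Spi1, Ets2 and Gabpa. Ccdc9 then ranked 92 for Ets2 and Leprotl1 13 for Gabpa.

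Of the 17 other ETS genes looked up, 8 passed the filter and 6 (Erg, Fev, Elf3, Ehf, Etv2 and Spdef) had 0 reads in all libraries, which allows up to 0.147 to 0.408 CPM by library from counting error alone. Erg, the close relative of Fli1 in endothelium, was among these 6. Elf5, an epithelial factor, had 0, 12 and 13 reads in itaconate replicates 1 to 3 and at most 4 elsewhere, Spib 9 reads in itaconate replicate 3 and 1 in KO replicate 1, and Etv4 3 reads in KO replicate 1. None of the 8 tested passed by edgeR in any comparison, and none had an unadjusted p under 0.05 for itaconate against KO or for KO against WT.

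Spic, which specifies red pulp macrophages in mice, lay at 79.0, 74.5 and 84.2 CPM in WT, 63.4, 60.8 and 112 CPM in KO and 94.6, 96.8 and 192 CPM in itaconate replicates 1 to 3. KO replicate 3 was high in its group and itaconate replicate 3 was the highest of all, and the itaconate against KO value was 0.70 ± 0.34 (edgeR adjusted p = 0.604). Elf2, a relative of Elf1, was at 179 CPM in itaconate replicate 3 and between 51.0 and 93.9 CPM elsewhere (0.55 ± 0.37, edgeR adjusted p = 0.716). Ets1, the relative of Ets2, was at 13.2 ± 3.67 CPM in KO, 9.77 ± 1.14 CPM in WT and 16.7 ± 5.35 CPM in the itaconate group (SD, n = 3). It was the 1 gene of these with an unadjusted p under 0.05 against WT (0.77 ± 0.33, edgeR adjusted p = 0.549). The ternary complex factors Elk1 and Elk4 were at 0.28 ± 0.29 and 0.14 ± 0.31 for itaconate against KO. Etv1 and Etv5 were at -0.13 ± 0.40 and -0.27 ± 0.27, and Erf, a repressor with 1 to 60 reads per library, at 0.80 ± 0.85.

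Genes that ETS factors work with or act on were read from lists of known partners and targets. No gene of any of these lists passed by edgeR in any of the 3 comparisons. For itaconate against KO 48.4% of all genes were above and 51.6% below 0, the median was -0.02, and at an unadjusted p under 0.05 4.19% were higher and 4.11% lower, beside which the counts of each list stand. Among 22 tested partner factors, 3 had an unadjusted p under 0.05 for itaconate against KO, all higher, where 4.19% of all genes were, and the median was 0.21. The smallest p were those of Daxx, a corepressor that binds ETS proteins (1.01 ± 0.31, edgeR adjusted p = 0.507), and Junb, an AP-1 subunit (1.00 ± 0.32, edgeR adjusted p = 0.507). Daxx lay at 213, 235 and 414 CPM in KO and 432, 658 and 652 CPM in itaconate replicates 1 to 3, and at 248 to 360 CPM in WT. Its itaconate libraries were all above its KO libraries, as were those of 5.61% of all genes. The pair that shares prefix number 2, KO replicate 3 and itaconate replicate 1, lay at 414 and 432 CPM. Junb and Cebpb passed in edgeR without the 4 libraries, a fit that called 56 of 11342 genes higher and 161 lower, and the median of the list was -0.06 there. That fit left out KO replicate 3, which held the highest KO level of both genes. Cebpb lay at 342, 607 and 1746 CPM in KO and 1961, 1506 and 1987 CPM in itaconate replicates 1 to 3. KO replicate 3 was thus within the itaconate range for Cebpb, and below it for Junb, at 160 CPM. In that fit the itaconate and KO libraries shared no prefix number, so treatment and prefix cannot be told apart. For KO against WT, Sp100 and Ncor1 had the smallest p, and their KO replicate 1 values of 444 and 863 CPM were the highest of the 9 libraries.

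Of 20 genes known as PU.1 targets, 15 were below and 5 above 0 for itaconate against KO, with a median of -0.28 where 51.6% of all genes were below 0, and 1 had an unadjusted p under 0.05. That was Fcgr3, a receptor for immunoglobulin G, at 581, 499 and 318 CPM in KO and 342, 225 and 113 CPM in itaconate replicates 1 to 3 (-1.04 ± 0.38, edgeR adjusted p = 0.523). Mpeg1, the macrophage perforin, was at -0.91 ± 0.43 (edgeR adjusted p = 0.597), with 3354 CPM in KO replicate 1 and 1124 and 873 CPM in the other 2. Against WT, with the same itaconate libraries, 16 of the 20 were below 0 (50.9% of all genes), the median was -0.44, and 5 had an unadjusted p under 0.05, all lower (3.56% of all genes). For KO against WT the median was -0.20. Btk, a kinase of myeloid and B cells, was at 79.1 CPM in KO replicate 1 and 29.9 and 30.1 CPM in KO replicates 2 and 3, beside 22.8 ± 2.95 CPM in WT (SD, n = 3), so that 1 library carried most of its value. That value was 1.03 ± 0.50, and Lyz2, the macrophage lysozyme, was at -0.46 ± 0.32 (edgeR adjusted p = 0.995 for both). Without itaconate replicate 3 the itaconate against KO median was -0.12, and without the 4 libraries -0.18. The itaconate against WT median was -0.32 without itaconate replicate 3 and -0.24 without the 4 libraries.

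The 9 genes known as GABP targets had a median of -0.06 for itaconate against KO. Tfb1m, a mitochondrial RNA methyltransferase, was at -1.48 ± 0.49 (edgeR adjusted p = 0.507), with 13.5 CPM in KO replicate 1 and 1.64 to 7.41 CPM in the other 8 libraries. Cox17, a copper chaperone of cytochrome oxidase, was at 0.57 ± 0.32 (edgeR adjusted p = 0.649). For KO against WT, Tfb1m was at 0.99 ± 0.48 and Atp5b, a subunit of ATP synthase, at -0.46 ± 0.33 (edgeR adjusted p = 0.995 for both).

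Among 17 kinases and regulators of the ERK pathway, which phosphorylates Ets2 and the Elk factors, 13 were above 0 for itaconate against KO (48.4% of all genes), with a median of 0.20, and 2 had an unadjusted p under 0.05, both higher (4.19% of all genes). Dusp5, a nuclear ERK phosphatase, lay at 9.92, 10.7 and 24.0 CPM in KO and 30.2, 22.6 and 55.6 CPM in itaconate replicates 1 to 3 (1.29 ± 0.41, edgeR adjusted p = 0.507). KO replicate 3 overlapped the itaconate group. Spry2, a feedback inhibitor of the pathway, was at 1.42 ± 0.55 (edgeR adjusted p = 0.529), and its KO replicate 3 level of 13.5 CPM lay above the 11.9 and 10.6 CPM of itaconate replicates 1 and 2. For KO against WT, Dusp6, a cytoplasmic ERK phosphatase, was at 0.78 ± 0.43 (edgeR adjusted p = 0.995). Of 8 tested serum response genes, which the ternary complex factors bind with SRF, 5 were above 0 for itaconate against KO and Junb was the 1 with an unadjusted p under 0.05. Egr2, an immediate early factor, lay between 0 and 2.07 CPM. Fos, the AP-1 subunit, was at 1.13 ± 0.57 for KO against WT (edgeR adjusted p = 0.995). It lay at 74.6, 20.9 and 82.5 CPM in KO replicates 1 to 3 and at 21.4 to 31.4 CPM in WT. Its highest level was 172 CPM, in itaconate replicate 3.

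Markers of the macrophage and of other cells that express ETS factors were summed per library. All 12 macrophage markers were detected, with sums of 9473 to 12279 CPM in WT, 8430 to 8925 CPM in KO and 5636 to 9446 CPM in the itaconate group, where replicate 3 was lowest. C1qa, a complement subunit, had the smallest p of the list both for KO against WT (-0.44 ± 0.27) and for itaconate against KO (0.71 ± 0.27, edgeR adjusted p = 0.523). Cd68, a lysosomal glycoprotein, was at -0.61 ± 0.36 for itaconate against KO. Mrc1, the mannose receptor, was at 0.65 ± 0.42 for KO against WT. In that comparison 10 of the 12 markers were below 0 (51.1% of all genes), with a median of -0.36. For itaconate against KO 7 were below 0 (51.6% of all genes), with a median of -0.13. Csf1r, Adgre1, Cd68, Itgam, Fcgr1, Lyz2, Cd14 and Msr1 stand both in this list and in that of the PU.1 targets. The values of these lists are therefore not independent. In bulk samples fewer cells of a type and less RNA per cell cannot be told apart.

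Of 7 endothelial markers 3 (Tek, Tie1 and Cldn5) had 0 reads in all libraries, and the sums were 7.32 to 8.28 CPM in WT, 6.65 to 16.0 CPM in KO and 7.39 to 18.6 CPM in the itaconate group. Itaconate replicate 2, with the highest Fli1 level, had a sum of 8.88 CPM. Itaconate replicate 3, with 712 CPM of Fli1, had the highest sum of the 9 libraries, 18.6 CPM. Among 7 megakaryocyte and platelet markers Gp9 had 0 reads in all libraries, and the sums, nearly all from Pf4, were 391 to 706 CPM in WT, 215 to 329 CPM in KO and 862, 708 and 203 CPM in itaconate replicates 1 to 3. The lowest sum of the 9 libraries was that of itaconate replicate 3, with 712 CPM of Fli1. Itaconate replicate 2, with 734 CPM of Fli1, was at 708 CPM. Pf4, which encodes platelet factor 4 and is also expressed by macrophages, was at 1.14 ± 0.43 for itaconate against KO (edgeR adjusted p = 0.523), and passed, with Ppbp, in the fit without the 4 libraries that called 56 of 11342 genes higher and 161 lower. That fit compared itaconate and KO libraries with different prefix numbers, and left out itaconate replicate 3, where Pf4 was at 201 CPM. T cell markers summed to at most 1.13 CPM and B cell markers to at most 1.41 CPM, with Cd3e and Cd2, and Cd79a and Pax5, at 0 reads. Dendritic cell markers summed to at most 2.43 CPM. Neutrophil markers summed to 234 to 248 CPM in WT, 163 to 213 CPM in KO and 78.7 to 217 CPM in the itaconate group. Nearly all of these sums came from S100a8 and S100a9, and Ly6g, Mpo and Elane were at most 1.08 CPM in any library. Fibroblast markers summed to 185 to 270.0 CPM in WT, 189 to 221 CPM in KO and 166 to 271 CPM in the itaconate group. The part of any of these in the ETS factor levels was not tested.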

How the data were processed

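Counts were the authors' own: the deposited table gives whole-number reads for each gene and library, not normalized. Strand-specific libraries were made from RNA caught by oligo-dT beads, with barcoded primers and pooling, per the labels' protocols, which mention no molecular identifier. Per the submitters' processing notes, STAR and HTSeq were used with the mm10 build, and versions, annotation and filters are not given in the sources used here. Between 23.1% and 33.7% of a library was assigned to no annotated feature and 17.1% to 20.0% had several alignments, and these summary lines were dropped before scaling.

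Symbols were matched by Ensembl identifier without its version (21745 of 22165 rows), and positions came from GENCODE M21 on GRCm38. The test was the two-sided quasi-likelihood F test of edgeR 4.0.16 in R 4.3.3 on all 9 libraries, with group as the only term, TMM scaling and a minimum count of 10 in the filter, leaving 10781 genes. Benjamini-Hochberg adjustment of p-values ran over all of them, with a threshold of 0.05. The SE of a log2 fold change is its size divided by the square root of F, and 95% intervals use the total degrees of freedom of the fit. The script was tested on simulated counts. CPM values are TMM-scaled, limits from 0 reads cover counting error only, and correlations use log2 CPM with a prior count of 2. Alternatives were 20 other settings for KO against WT and 19 for each itaconate comparison, among them DESeq2 1.42.0, limma-voom (limma 3.58.1) and leaving out each library. Values of the partner, target and marker lists without the 4 libraries or without itaconate replicate 3 were chosen after seeing the data.

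Members and lists were chosen with earlier results of these data known. Named genes were the 9 members, the other ETS genes past the filter, Acod1, of each partner or target list the 2 with the smallest p for itaconate against KO and the 2 for KO against WT, and the genes with the most similar profile (5 for Fli1, 2 for each other member). A few genes that this rule or the marker lists include are not reported here. Replicate numbers did not pair the libraries, as sensitivity values below describe.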

Additional observations from a re-analysis of the deposited data

How the results depend on the processing

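None of the 8 tested members was called under the 20 other settings for KO against WT or the 19 for each itaconate comparison, and Fli1 was not tested. For itaconate against KO, DESeq2 gave no adjusted p to 5 of the 8 (Ets2, Elf4, Etv6, Elk3 and Gabpa). All-gene calls were 0 in the edgeR fit of 9 libraries and moved to 80 (itaconate against KO) and 92 (itaconate against WT) without a filter on low counts, to 1, 15 and 23 by DESeq2 for KO against WT, itaconate against KO and itaconate against WT, and to 2, 217 and 1 when the 4 libraries with Acod1 reads against their label were left out. They ran from 0 to 6 (itaconate against KO) and 0 to 4 (itaconate against WT) when 1 library was left out, the upper values without itaconate replicate 1. The cause was not tested.

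The Fli1 log2 fold change lay between 1.47 and 1.91 for itaconate against KO and between 1.28 and 1.73 for itaconate against WT over the fits that left out 1 library. With the description prefix as a term these values were 0.50 and 0.08. That fit also turned the sign of Elf4 (0.21), Elk3 (0.16), Elf1 (-0.022), Etv3 (-0.011) and Gabpa (-0.55) for itaconate against KO, of Ets2 (-0.13), Elf4 (0.29), Elk3 (0.22), Etv3 (-0.16) and Gabpa (-0.47) against WT, and of Elf4 (0.076) and Elk3 (0.060) for KO against WT. Within prefix MB_1, KO against WT turned for Elf4 (0.10), Etv6 (0.016) and Elk3 (0.080). Without the 4 libraries it turned for Spi1 (0.13) and Elk3 (0.053), itaconate against KO for Elf1 (-0.059) and Gabpa (-0.13), and itaconate against WT for Spi1 (0.011), Ets2 (-0.25) and Gabpa (-0.042). None of these values was called before or after.

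Leaving out 1 library, values that turned sign ranged for KO against WT from -0.35 to 0.083 (Spi1), -0.22 to 0.076 (Ets2), -0.22 to 0.10 (Elf4), -0.13 to 0.065 (Etv6), -0.21 to 0.19 (Etv3) and -0.25 to 0.081 (Elk3). For itaconate against KO they ranged from -0.074 to 0.26 (Elf1), -0.25 to 0.048 (Elf4), -0.18 to 0.15 (Elk3) and -0.22 to 0.33 (Gabpa), and against WT from -0.21 to 0.022 (Elk3) and -0.013 to 0.52 (Gabpa). Scaling by RLE or upper quartile, another filter minimum, DESeq2, limma-voom and fits of 2 groups turned no member's sign.

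Same-numbered libraries of 2 groups had correlations of their deviations from the group means between -0.159 and 0.245, so the numbers were not taken as pairs. The replicate block called 0 members and 0 genes in each comparison, as did the fit without it. Gabpa had the fewest reads of the members, 145 to 439 per library.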
